A study of Drosophila melanogaster with 35 samples.

Results

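Cells that burn oxygen make superoxide and hydrogen peroxide, and a small set of enzymes removes both. Superoxide dismutases turn superoxide into hydrogen peroxide. Catalase and the peroxiredoxins break hydrogen peroxide down, and the peroxiredoxins use electrons for it that thioredoxin reductase and glutathione supply. Flies have no glutathione reductase, so thioredoxin reductase also keeps their glutathione reduced. The fly counterpart of Nrf2, cnc, switches many of these genes on, and Keap1 holds its product back by handing it to a Cul3 ubiquitin ligase. The 10 genes described here were chosen by name: Sod1, Sod2, Cat, Prx3, Prx5, Prx6c, Trxr1, Gclc, Keap1 and cnc. All 10 were found among 17830 gene rows of head counts and among 13963 genes of a Ribo-Seq table.

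Heads of *Drosophila melanogaster* were profiled by RNA-seq in 23 libraries. Their genotypes were WT KDM5 (n = 5), the missense changes A224T, D234G, L854F, R873W and Y874C, which model human disease variants of KDM5C (n = 3 each), and JmjC, made to lack demethylase activity (n = 3). KDM5 is a chromatin enzyme that demethylates histone H3. All flies were kept at 25 °C and taken 1 to 5 days after eclosion, and the sources used here do not give their sex. Ribo-Seq compared neurons with RNAi against kdm5 (elav;RPL3-FLAG;kdm5RNAI) and control neurons (elav;RPL3-FLAG), both with the neuronal elav driver and the FLAG-tagged ribosomal protein, in 3 immunoprecipitated and 3 input libraries each. Separate cultures are not named for the libraries of a strain. The p-values therefore measure the spread among libraries, which may be technical.

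Gene counts per library were 16787755 to 32730301, except D234G 1 (3774003) and D234G 2 (4921958). By the male-specific RNA roX2 the libraries fell into 2 sets. WT 1, WT 2 and the strains D234G, R873W and Y874C had more than 5 CPM of it and form set 1. WT 3 to 5 and the strains A224T, L854F and JmjC had less and form set 2. Each strain lay in 1 set, so values against the WT libraries of the same set (same-set values) stand beside those against all 5 WT libraries. Head markers were present throughout: 10 neuron markers summed to 3851 to 6948 CPM, and 8 photoreceptor markers to 40611 to 59005 CPM. Set 1 had only 13.9 to 40.3 CPM of 5 antenna markers, where set 2 had 209 to 520 CPM. Summed fat body markers ranged from 10974 to 29282 CPM in set 1, and from 36069 to 70111 CPM in set 2. They include the yolk protein genes Yp1, Yp2 and Yp3, which females express, so this sum does not measure fat body alone. Within set 1 it was 12799 to 14365 CPM in WT 1 and 2 and 10974 to 13836 CPM in D234G. It was higher in R873W (23476 to 29282 CPM) and Y874C (19796 to 24581 CPM). Whether the sets differ in sex was not tested. Sums of 16 male reproductive markers reached 589 CPM in D234G (1 and 3 were high, 2 was at 1.02 CPM) and 291 CPM in R873W, against at most 3.64 CPM in the other groups. Kdm5 itself was at 445 to 532 CPM in WT and rose in D234G (log2 fold 0.19, edgeR adjusted p = 0.0125) and R873W (0.25, 0.00223). Its RNA level does not show the alleles. Levels are counts scaled to a common library size by TMM (CPM), given as mean ± SD. They are not divided by gene length, so levels of different genes are not compared.

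Of the 10 genes, 9 had enough counts to be tested. Few of them differed between any strain and WT, and Sod2 and cnc were the members called most often. A gene was called at an adjusted p under 0.05 by the quasi-likelihood test of edgeR (Benjamini-Hochberg adjustment over 12093 genes), and every adjusted p of a head gene below comes from it unless DESeq2 is named. Against all WT libraries, 1 of 9 members was called in A224T (14.8% of all genes), 3 of 9 in D234G (44.2%), 0 of 9 in L854F (7.79%), 1 of 9 in R873W (43.7%), 2 of 9 in Y874C (19.3%) and 2 of 9 in JmjC (26.8%). Against same-set WT the counts were 1 in A224T (17.7% of all genes), 1 in D234G (31.0%), 0 in L854F (11.3%), 2 in R873W (37.7%), 0 in Y874C (12.8%) and 1 in JmjC (25.6%). With 9 genes these counts lie near or below the shares of all genes, so the members were not called more often than genes at large. In L854F edgeR gave 0 members at an unadjusted p under 0.05 against all WT libraries and 1, cnc, against same-set WT, and DESeq2 called 0. In Y874C against same-set WT 3 members had an unadjusted p under 0.05: cnc, Cat and Sod2.

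Ranges of libraries against all 5 WT libraries gave a like picture. All libraries of a strain lay above all 5 WT libraries for 1 member in A224T (11.2% of all genes), 2 in D234G (13.8%), 0 in L854F (9.34%), 1 in R873W (18.5%), 1 in Y874C (10.5%) and 1 in JmjC (14.6%). All lay below for 1 member in D234G (14.0%), 1 in Y874C (8.48%) and 1 in JmjC (14.3%), and for 0 in A224T (8.09%), L854F (6.04%) and R873W (16.8%).

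The median log2 fold of the 9 members lay between -0.09 (L854F) and 0.16 (D234G) against all WT libraries, while that of all genes lay between -0.01 and 0.02. Medians of absolute log2 folds over the members were 0.08 in A224T and 0.19 in D234G, where all genes had 0.21 and 0.32. In JmjC they were 0.19 and 0.27.

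**Figure D1:**
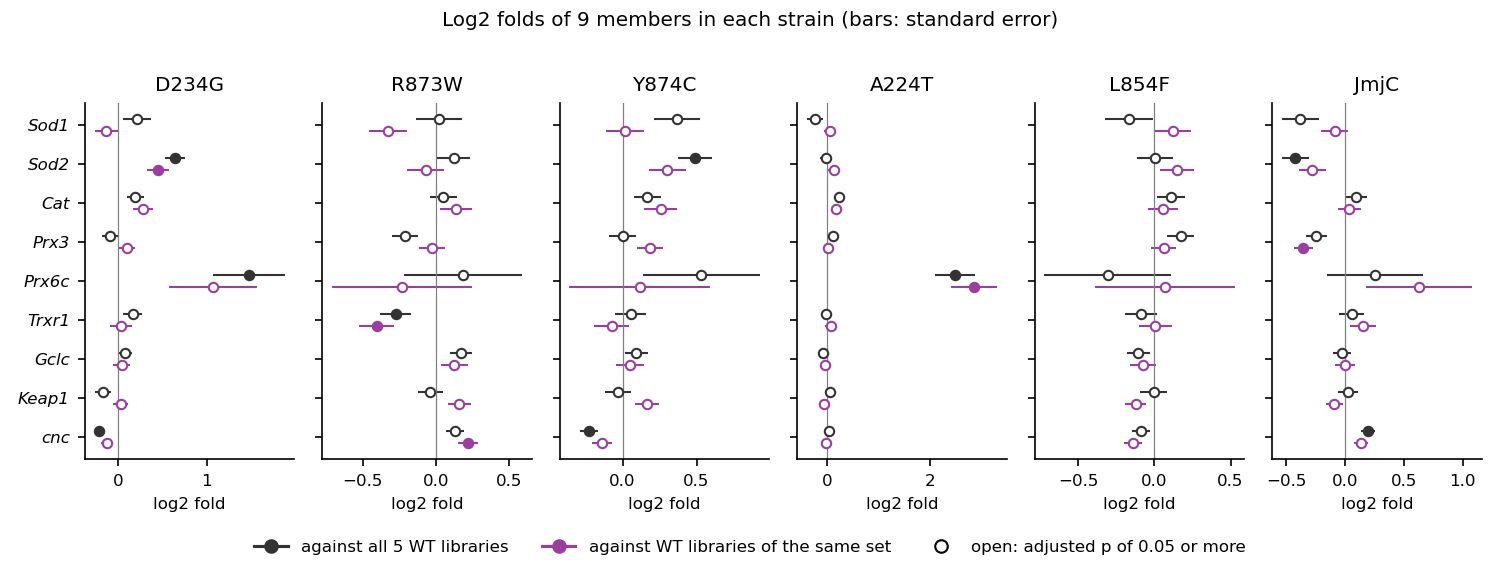
Log2 folds (horizontal axis, each panel on its own scale) of 9 antioxidant genes in the 6 strains, against all 5 WT libraries (black) and against WT libraries of the same set (purple). Bars are standard errors and filled points passed an adjusted p of 0.05; Prx6c in A224T lies farthest from 0, at 2.49 and 2.86.

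Sod2, the manganese superoxide dismutase of the mitochondrial matrix (2R 16772785 to 16773915, minus strand, dm6), rose in D234G and Y874C and fell in JmjC against all WT libraries. Its level was 105, 110.4, 96.6, 80.7 and 78.4 CPM in WT 1 to 5. In D234G it was 151, 133 and 156 CPM, in Y874C 114, 140.1 and 143 CPM, and in JmjC 67.4, 72.9 and 70.6 CPM. Every D234G and Y874C library lay above every WT library, and every JmjC library lay below them all. The log2 fold was 0.64 ± 0.12 (SE) in D234G (edgeR adjusted p = 0.000199), 0.49 ± 0.11 in Y874C (edgeR adjusted p = 0.00545) and -0.42 ± 0.12 in JmjC (edgeR adjusted p = 0.0119). In A224T, L854F and R873W it spanned 86.3 to 119 CPM, overlapping WT.

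The 2 sets of WT libraries themselves stood apart in Sod2, with 107 ± 4.17 CPM in WT 1 and 2 and 85.2 ± 9.89 CPM in WT 3 to 5 (log2 fold -0.33 ± 0.12, edgeR adjusted p = 0.0504; without WT 3 -0.44 and 0.0192). Against same-set WT the D234G fold was 0.45 ± 0.13 (edgeR adjusted p = 0.0106), while Y874C had 0.30 ± 0.12 (edgeR adjusted p = 0.124) and JmjC -0.28 ± 0.11 (edgeR adjusted p = 0.0774), neither past the threshold. The same-set call in D234G was lost without WT 1 (0.35, edgeR adjusted p = 0.118), WT 2 (0.42, 0.0791) or D234G 3 (0.39, 0.0522). The same-set value of Y874C passed without Y874C 1 (0.41, edgeR adjusted p = 0.0311). With D234G 2 as its only library, D234G had 0.48, and its spread is then taken from the other groups. That library was low in the male reproductive markers, but had 35.8 CPM of dhd, a germline thioredoxin. The JmjC call was lost without JmjC 1 (-0.38, edgeR adjusted p = 0.0632), and the Y874C call with only the compared groups fitted (edgeR adjusted p = 0.0623).

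The summed level of 11 muscle markers moved with Sod2 in D234G, Y874C and JmjC. It was 12166 to 13571 CPM in D234G and 9000.7 to 11052 CPM in Y874C, against 7342 to 8459 CPM in WT 1 and 2. JmjC had 4980.2 to 5322 CPM, against 5434 to 6468 CPM in WT 3 to 5. In R873W the sum was also high, at 11033 to 12510 CPM, while Sod2 overlapped WT at 102 ± 15.2 CPM. In JmjC neuron markers (3851 to 4281 CPM, WT at least 4802 CPM) and 8 glial markers (2326 to 2434 CPM, WT at least 2563 CPM) were also below every WT library. Glial markers were above WT 1 and 2 (at most 2624 CPM) in every strain of set 1. They had 2946 to 3144 CPM in D234G, 2725 to 3521 CPM in R873W and 2731.5 to 3042 CPM in Y874C. Neuron markers of R873W (6211.5 to 6948 CPM) were above every WT library (at most 5785 CPM). The part of these cell types in the Sod2 and cnc results was not tested, and in whole heads fewer cells of a type and less RNA per cell cannot be told apart.

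**Figure D2:**
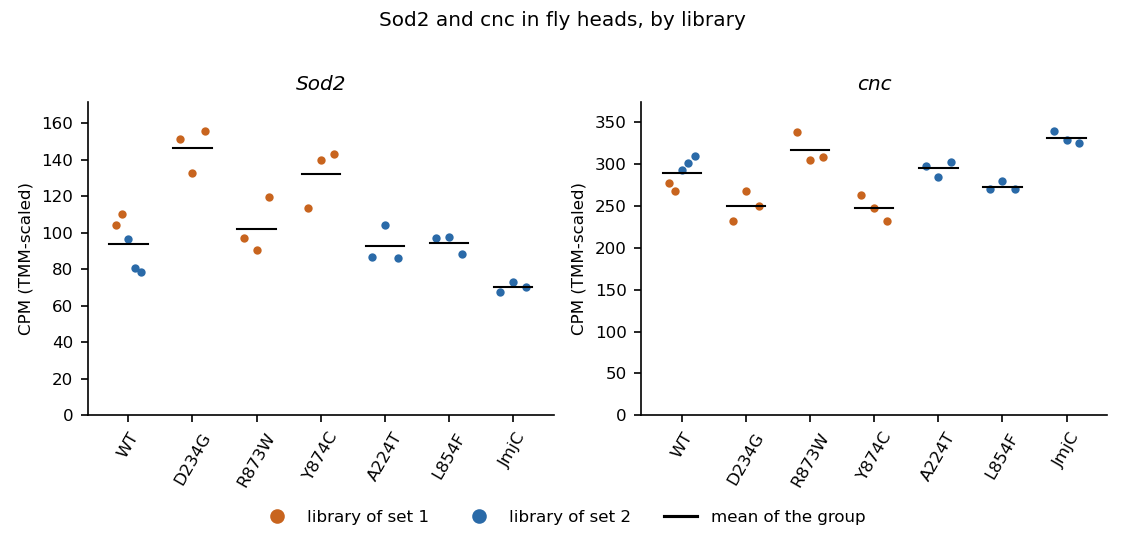
CPM (vertical axis, from 0) of Sod2 and cnc in each of 23 head libraries by strain, with set 1 libraries in orange, set 2 libraries in blue and a bar at each group's mean. Sod2 is high in D234G and Y874C and low in JmjC, and cnc is low in D234G and Y874C and high in JmjC.

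The regulator cnc (3R 23185580 to 23226711, minus strand) went the other way from Sod2 in the same 3 strains. It measured 277, 268, 293, 301 and 309.5 CPM in WT 1 to 5, 232, 268 and 249.6 CPM in D234G, 264, 247 and 232 CPM in Y874C, and 339.8, 328 and 325 CPM in JmjC. All D234G and Y874C libraries were below all WT libraries, D234G 2 by less than 1 CPM, and all JmjC libraries were above them. The log2 fold was -0.21 ± 0.061 in D234G (edgeR adjusted p = 0.00786), -0.23 ± 0.060 in Y874C (edgeR adjusted p = 0.0121) and 0.19 ± 0.059 in JmjC (edgeR adjusted p = 0.0201). Against same-set WT none of these passed: -0.12 in D234G (edgeR adjusted p = 0.167), -0.14 in Y874C (0.182) and 0.14 in JmjC (0.0965). Against all WT libraries none passed with only the compared groups fitted (edgeR adjusted p = 0.0878, 0.0936 and 0.0625).

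In R873W cnc measured 338, 305 and 308 CPM, above both WT libraries of its set (273 ± 6.38 CPM, n = 2), as 31.3% of all genes did. Over these WT libraries cnc rose, with a log2 fold of 0.22 ± 0.066 (edgeR adjusted p = 0.015). Against all WT libraries it had 0.13 (edgeR adjusted p = 0.0828; without WT 5 0.15 and 0.047). The same-set call was lost without WT 1 (edgeR adjusted p = 0.105), WT 2 (0.256) or R873W 1 (0.0732). The Y874C call against all WT libraries was lost without Y874C 2 (edgeR adjusted p = 0.0707) or 3 (0.0861), and the JmjC call without JmjC 1 (0.0955) or 2 (0.0576). The D234G fold was -0.13 with D234G 2 alone (edgeR adjusted p = 0.397), and its same-set value passed without D234G 2 (-0.24, edgeR adjusted p = 0.0152). The cnc locus makes many transcripts, of which the long ones encode the Nrf2-like protein and others a head-patterning protein, and gene counts join them. It also overlaps fzo, a testis-expressed mitofusin gene, over 2391 bases on the same strand. fzo was at 8.07 and 10.1 CPM in D234G 1 and 3 and at most 2.52 CPM elsewhere.

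Keap1 (3R 17073942 to 17079945, minus strand), which targets the cnc product for degradation, was not called in any strain in either comparison with WT. Its libraries spanned 20.4 to 29.5 CPM over all groups, and strain folds against all WT libraries lay between -0.17 ± 0.092 (D234G, edgeR adjusted p = 0.147) and 0.05 ± 0.086 (A224T, edgeR adjusted p = 0.758). Without WT 2 the D234G value passed (-0.27, edgeR adjusted p = 0.0118), as it did with no filter on low counts (-0.24, 0.0467). Against same-set WT D234G had 0.03 (edgeR adjusted p = 0.844). Y874C had 0.17 (edgeR adjusted p = 0.197) and R873W 0.16 (0.123) there, with all libraries of both above WT 1 and 2. Neighbouring groups in the order of mean levels overlapped throughout, from A224T (27.0 ± 1.49 CPM) down to D234G (23.2 ± 2.49 CPM). Keap1 did differ within WT, at 22.8 ± 1.16 CPM in WT 1 and 2 and 28.4 ± 1.35 CPM in WT 3 to 5 (log2 fold 0.32 ± 0.081, edgeR adjusted p = 0.00639, lost without WT 2 at 0.112).

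Sod1, the copper and zinc superoxide dismutase of the cytosol (3L 11112281 to 11113740, minus strand), followed the sets of libraries more than the strains. In WT it measured 343 and 349 CPM in libraries 1 and 2, and 271, 209.8 and 187 CPM in libraries 3 to 5. The sets of WT libraries did not overlap, and the log2 fold of WT 3 to 5 against WT 1 and 2 was -0.64 ± 0.13 (edgeR adjusted p = 0.000968). Between these 2 sets of 1 genotype 3 of 9 members were called (27.6% of all genes): Sod1 fell (13.2% of all genes did), and Keap1 and Prx3 rose (14.4%). Prx3 had 0.30 ± 0.090 (edgeR adjusted p = 0.0186), lost without WT 1, 2 or 3 (highest edgeR adjusted p = 0.175). Sod1 was not called in any strain against all WT or same-set WT libraries with none left out. JmjC had the lowest mean (209 ± 14.4 CPM), with a log2 fold of -0.38 ± 0.16 against all WT libraries (edgeR adjusted p = 0.0837) and -0.09 ± 0.12 against same-set WT (edgeR adjusted p = 0.638). The first passed without WT 4 (-0.46, edgeR adjusted p = 0.0337) or WT 5 (-0.49, 0.0121), which had the lowest WT levels. Y874C, with the highest mean (351 ± 35.8 CPM), passed without WT 1 (0.47, edgeR adjusted p = 0.0297) or WT 2 (0.47, 0.0269), which had the highest. R873W had -0.33 ± 0.13 against same-set WT (edgeR adjusted p = 0.0506), and without R873W 3 this value passed (-0.42, edgeR adjusted p = 0.0262).

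Cat, the catalase of peroxisomes (3L 18822604 to 18828188, plus strand), was not called in any strain. It spanned 275 to 396 CPM over the 23 libraries, and WT had the lowest mean (309 ± 38.2 CPM) and A224T the highest (361 ± 9.99 CPM). All 6 folds against all WT libraries were above 0, from 0.05 ± 0.092 in R873W to 0.22 ± 0.091 in A224T (edgeR adjusted p = 0.698 and 0.113), and they share the WT libraries. Without WT 3, whose 371 CPM was the highest WT value, Cat passed in A224T (0.30, edgeR adjusted p = 0.0172), D234G (0.27, 0.0137) and Y874C (0.24, 0.05 when rounded). Scaled by library size alone it passed in A224T (0.30, edgeR adjusted p = 0.0262) and D234G (0.23, 0.0424).

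Prx3, the mitochondrial peroxiredoxin (3R 17545222 to 17546531, minus strand), fell in JmjC against its own set. It measured 73.9, 62.9 and 63.3 CPM in WT 3 to 5 and 51.8, 50.4 and 54.2 CPM in JmjC. These libraries did not overlap (22.0% of all genes lay all below in this way), and the log2 fold was -0.35 ± 0.080 (edgeR adjusted p = 0.00282). WT 1 and 2, at 52.8 and 55.8 CPM, lay close to JmjC, so against all 5 WT libraries the groups overlapped and the fold was -0.24 ± 0.090 (edgeR adjusted p = 0.0527). Without WT 1 or WT 2 this value passed (-0.29, edgeR adjusted p = 0.0173, and -0.27, 0.0406). The same-set call held without any 1 library of these groups. R873W had -0.21 ± 0.090 against all WT libraries (edgeR adjusted p = 0.0625) and passed without WT 1 (-0.26, edgeR adjusted p = 0.0181) or WT 2 (-0.26, 0.0255), but had -0.03 against same-set WT (0.834).

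JmjC was also compared with the 5 missense strains, weighted equally. Here 4 of 9 members were called (40.7% of all genes), 1 higher (21.0%) and 3 lower (19.7%). cnc was higher, with a log2 fold of 0.27 ± 0.051 (edgeR adjusted p = 0.000346). Sod2 was lower, at -0.67 ± 0.11 (edgeR adjusted p = 6.02e-05), as were Sod1 at -0.42 ± 0.14 (0.0225) and Prx3 at -0.24 ± 0.079 (0.02). Against A224T and L854F alone, the strains of its set, 3 were called (25.2% of all genes), 1 higher (11.5%) and 2 lower (13.7%): cnc at 0.22 ± 0.051 (edgeR adjusted p = 0.00311), Sod2 at -0.41 ± 0.098 (0.00458) and Prx3 at -0.39 ± 0.070 (0.000515). Sod1 had -0.17 ± 0.10 there (edgeR adjusted p = 0.244). Prx6c, not called there (-0.84, edgeR adjusted p = 0.125), passed without A224T 1 (-1.03, 0.0134). The Sod1 and Prx3 calls against the 5 strains were lost without any 1 JmjC library, and that of Prx3 also without A224T 1, A224T 2 or Y874C 2 (highest edgeR adjusted p = 0.166). Scaling by library size alone moved the median of all genes by 0.12 in this comparison, and by 0.14 in JmjC against WT. Under that scaling Prx3 (-0.12, edgeR adjusted p = 0.159) and Sod1 (-0.30, 0.107) were not called against the 5 strains, Keap1 was (0.18, 0.0442), and Sod2 in JmjC against WT was not (-0.29, 0.0962).

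The 5 missense strains together, against all WT libraries, gave 2 of 9 members (24.0% of all genes), both higher (10.9%): Prx6c at 0.88 ± 0.30 (edgeR adjusted p = 0.0395) and Sod2 at 0.25 ± 0.083 (0.0372). Against same-set WT 0 were called (25.5% of all genes), with 3 at an unadjusted p under 0.05 (Cat, Prx6c and Sod2). Both calls against all WT libraries were lost in many fits that left out 1 library, such as without WT 5 (Prx6c 0.74, edgeR adjusted p = 0.112; Sod2 0.19, 0.129), and without WT 3 Cat passed (0.22, 0.0164).

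Prx6c, a peroxiredoxin of the Prx6 type (2R 10418718 to 10419761, plus strand), gave the largest fold among the members. It measured 6.04 to 13.9 CPM in WT, and 17.5, 117 and 38.6 CPM in A224T 1 to 3. All 3 A224T libraries lay above WT, and they differed among themselves far more than those of other strains. The log2 fold was 2.49 ± 0.39 (edgeR adjusted p = 0.000255), and 2.86 ± 0.45 against same-set WT (edgeR adjusted p = 0.00019). A224T 2 decides its size: without that library the folds were 1.45 (edgeR adjusted p = 0.00345) and 1.83 (0.000262). In D234G the level was 25.8, 26.2 and 32.97 CPM, also above all WT libraries, with a fold of 1.48 ± 0.41 (edgeR adjusted p = 0.0059), but 1.07 ± 0.50 against same-set WT (edgeR adjusted p = 0.114). With D234G 2 as the only D234G library the first was 1.34 (edgeR adjusted p = 0.202). The other 4 strains had 7.66 to 19.4 CPM and were not called.

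Prx6c lies within a few kilobases of Prx6b (2R 10424436 to 10425471) and CG12896 (2R 10426880 to 10427915), genes of the same family whose transcripts may share reads with it, so the values of all 3 are uncertain. In A224T they had the same order of libraries. Prx6b measured 19.2, 172 and 49.0 CPM in A224T 1 to 3, and CG12896 6.77, 53.0 and 12.6 CPM, so A224T 2 was the highest of the 23 libraries for all 3 genes. Prx6b rose in A224T by 2.15 ± 0.46 (edgeR adjusted p = 0.00375) and CG12896 by 1.68 ± 0.56 (0.0499). Without A224T 2 these folds were 0.92 (edgeR adjusted p = 0.142) and 0.37 (0.734). Against same-set WT they were 2.72 ± 0.52 (edgeR adjusted p = 0.00108) and 2.65 ± 0.60 (0.00423). A224T 2 also had the highest sums of muscle (7832 CPM, against 5609 and 5830.3 CPM in A224T 1 and 3) and glial markers (3427 CPM, against 2560.4 and 2600.3 CPM) of its strain. The same held for fat body (57693 CPM, against 45653 and 51113 CPM), neuron (4883 CPM, against 4511 and 4344 CPM) and antenna markers (433 CPM, against 394 and 333 CPM). Its hemocyte markers were the lowest (3662 CPM, against 4521 and 4290 CPM), and its photoreceptor markers lay between. The part of these cell types in the result was not tested.

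**Figure D3:**
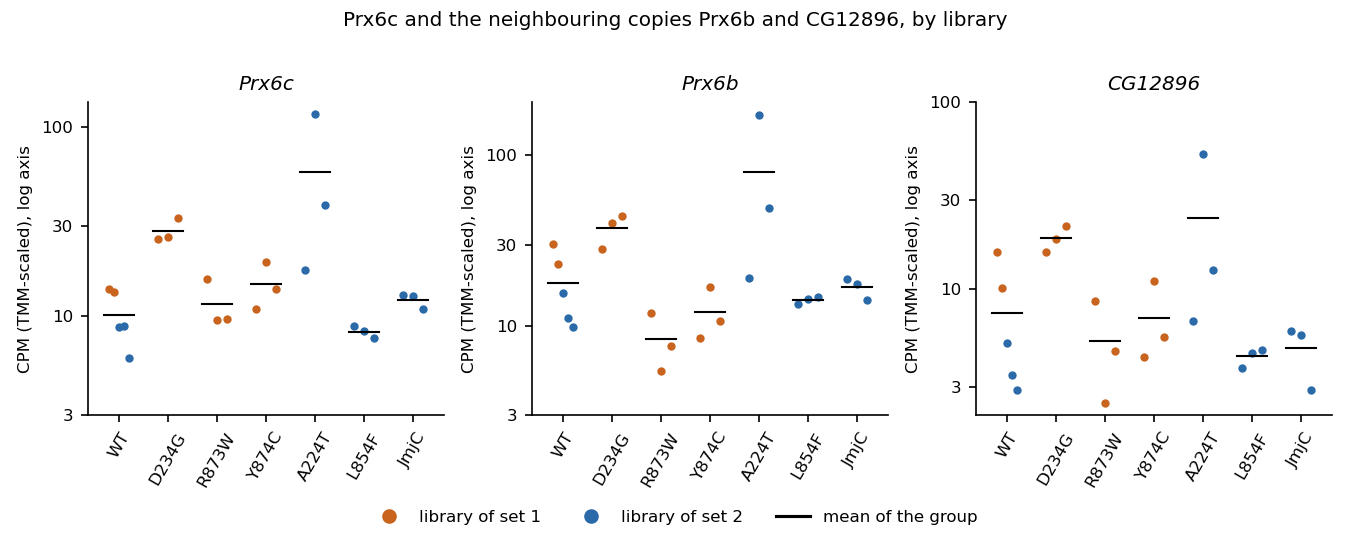
CPM (vertical axes, log scale) of Prx6c and the neighbouring genes Prx6b and CG12896 in each head library by strain, coloured by set, with a bar at each group's mean. A224T 2 is the top point in every panel (117, 172 and 53.0 CPM), and the D234G libraries sit above most others.

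Prx5 (3R 18165442 to 18167273, minus strand), a further peroxiredoxin, had 0 counts in all 23 head libraries and could not be tested. Its span lies over CG7215 on the same strand, with 1832 shared bases, and CG7215 also had 0 counts. The Ribo-Seq table lists Prx5 with a mean RNA count of 3915, so the 0 in heads is not read as a lack of expression. The part of the counting of overlapping genes in it was not tested.

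Trxr1, the thioredoxin reductase that stands in for glutathione reductase in flies (X 8242528 to 8248033, plus strand), fell in R873W. It measured 183, 191, 168, 147 and 163 CPM in WT 1 to 5 and 125, 144 and 154 CPM in R873W. R873W lay below both WT libraries of its set, as 29.4% of all genes did, and overlapped the others. The log2 fold was -0.27 ± 0.11 against all WT libraries (edgeR adjusted p = 0.0431) and -0.40 ± 0.12 against same-set WT (edgeR adjusted p = 0.0134). In edgeR the first call was lost without any 1 of WT 1, 2 and 3 or R873W 1 and 2, with -0.18 and an edgeR adjusted p of 0.241 without R873W 1, and by DESeq2 (adjusted p = 0.0585). The same-set call was lost without WT 2 (edgeR adjusted p = 0.0762) or R873W 1 (0.0616). Trxr1 overlaps sni on the opposite strand over 1489 bases, and the sources used here do not say whether counting used strand. In the other strains its folds lay between -0.09 and 0.16.

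Gclc, the catalytic subunit of the ligase that begins glutathione synthesis (X 8102181 to 8116147, minus strand), was not called in any strain. It spanned 101 to 146 CPM. R873W had the highest mean (139 ± 3.79 CPM, WT 124 ± 5.47 CPM), with all 3 libraries above all WT libraries and a log2 fold of 0.17 ± 0.076 (edgeR adjusted p = 0.0792). Against same-set WT the R873W fold was 0.13 (edgeR adjusted p = 0.301). Against all WT libraries DESeq2 called Gclc in R873W (0.20, adjusted p = 0.024).

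**Figure D4:**
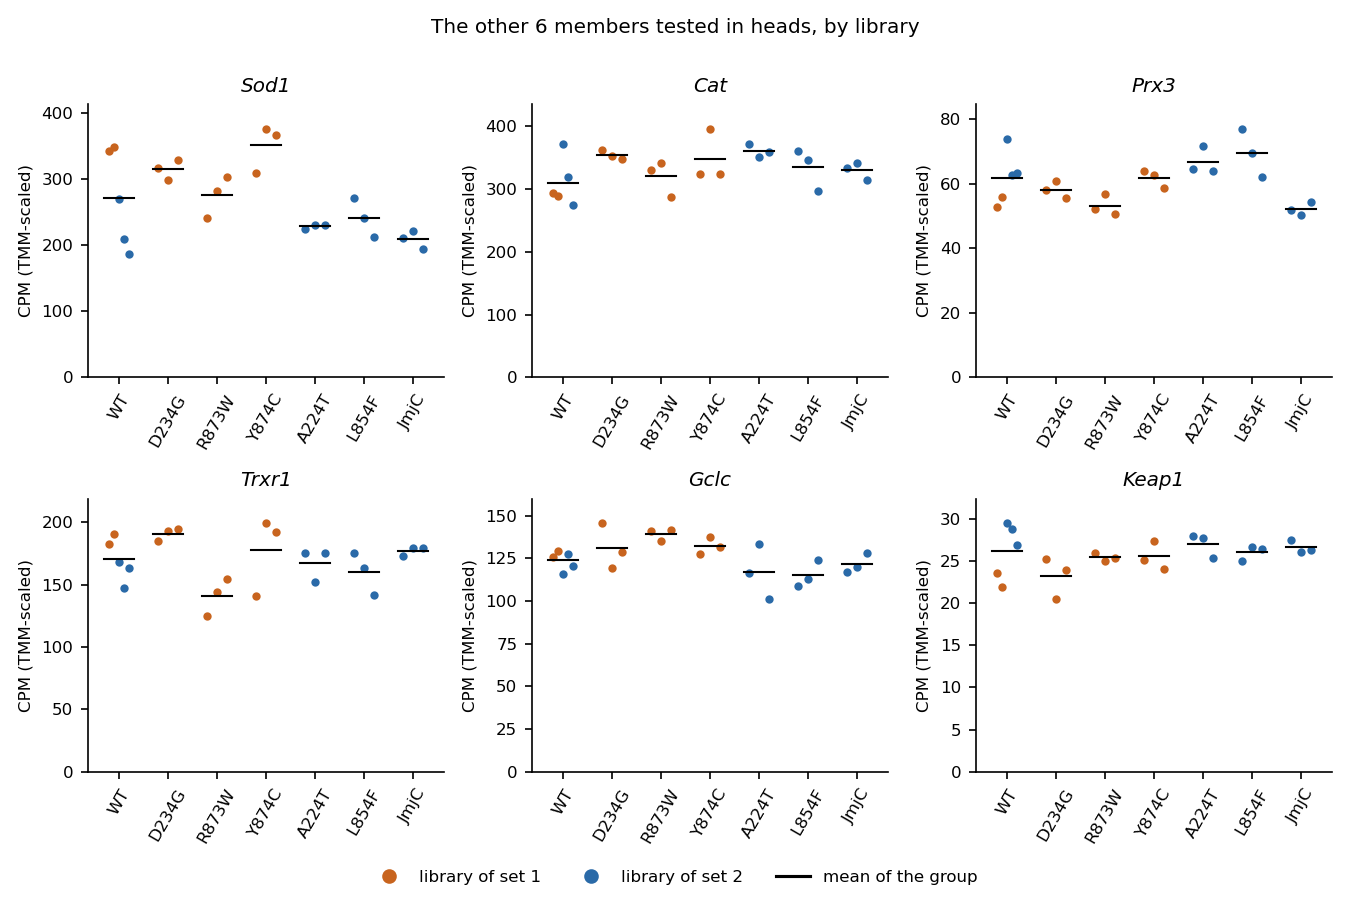
CPM (vertical axes, from 0) of Sod1, Cat, Prx3, Trxr1, Gclc and Keap1 in each head library by strain, coloured by set, with a bar at each group's mean. In WT the 2 sets separate for Sod1 (343 and 349 CPM against 187 to 271 CPM), and JmjC lies below WT 3 to 5 for Prx3.

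For the members called in 3 or more strains, the genes with the nearest profile of centred log2 means over the 7 groups were taken from 8205 genes with a mean of at least 5 CPM. For Sod2 they were ND-24 and ND-13A, subunits of respiratory complex I, with mean absolute differences of 0.034 and 0.035 on the log2 scale. For cnc they were Usp10 and GPHR, with 0.035 and 0.037. Sod2 itself deviated from its own mean by 0.26 on average, and cnc by 0.13.

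A wider list of 41 genes of the same system, all of them tested, was described by its counts beside the shares of all genes, with no test of the difference. Against all WT libraries 4 rose in A224T (7.19% of all genes rose) and 1 fell (7.57% fell). In D234G 14 rose (25.3%) and 7 fell (19.0%), in L854F 1 rose (4.38%) and 1 fell (3.41%), and in R873W 11 rose (21.9%) and 10 fell (21.8%). In Y874C 5 rose (9.27%) and 6 fell (10%), and in JmjC 5 rose (12.1%) and 8 fell (14.8%). Against same-set WT 4 rose in A224T (8.46% of all genes) and 2 fell (9.2%), in D234G 13 rose (20.3%) and 3 fell (10.7%), and in L854F 3 rose (5.63%) and 3 fell (5.71%). In R873W 7 rose (18.9%) and 12 fell (18.8%), in Y874C 3 rose (6.85%) and 3 fell (5.93%), and in JmjC 6 rose (11.4%) and 6 fell (14.2%). The median log2 fold of the list ran from -0.09 in JmjC to 0.13 in D234G against all WT libraries, and from 0.02 in R873W to 0.19 in D234G against same-set WT, where JmjC had 0.03.

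SelR, a methionine sulfoxide reductase that repairs oxidised methionine, rose in the 3 strains of set 1. It measured 170 to 177 CPM in WT, 218 to 247 CPM in D234G, 235 to 247 CPM in R873W and 225 to 233 CPM in Y874C. WT overlapped with none of these 3 strains, and WT 3 to 5 against WT 1 and 2 gave an edgeR adjusted p of 0.997. The log2 folds were 0.40 ± 0.052, 0.47 ± 0.051 and 0.40 ± 0.051 (highest edgeR adjusted p = 2.92e-05), and these calls held against same-set WT and without any 1 library. The muscle marker sums given for Sod2 above moved with SelR, lying above all WT libraries in these 3 strains and below them all in JmjC, and their part in the result was not tested. In JmjC it fell by 0.18 on the log2 scale (edgeR adjusted p = 0.0148, lost without JmjC 1 at 0.0577 or JmjC 2 at 0.166).

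Men-b, a malic enzyme that makes NADPH, went the same way as SelR. It measured 231 to 257 CPM in WT, 338 to 343 CPM in D234G, 341 to 368 CPM in R873W, 327 to 339 CPM in Y874C and 180 to 203 CPM in JmjC. The first 3 strains lay above WT and JmjC below, with log2 folds of 0.47, 0.52, 0.44 and -0.35 (highest edgeR adjusted p = 0.00471). The muscle marker sums had the same pattern here too, and their part was not tested. The JmjC call was lost without JmjC 2 (edgeR adjusted p = 0.0508). Against same-set WT the folds were 0.42, 0.47, 0.39 and -0.32 (highest edgeR adjusted p = 0.0183). Those calls were lost in D234G without WT 1 or 2, in Y874C without WT 1, WT 2 or Y874C 3, and in JmjC without JmjC 1, JmjC 2 or WT 5 (highest edgeR adjusted p = 0.17).

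Gss2, a glutathione synthetase, was at 36.3, 44.3 and 40.3 CPM in R873W, against 109 to 130 CPM in WT, without overlap. Its log2 fold was -1.56 ± 0.088 (edgeR adjusted p = 2.57e-10), and -1.69 against same-set WT. Its paralog Gss1 had -1.66 ± 0.10 (edgeR adjusted p = 1.22e-09), and reads may be split between them. In D234G the fold of Gss2 was -0.21 (edgeR adjusted p = 0.0479, lost without WT 1 at 0.0967 or D234G 3 at 0.0968). Gss2 rose in Y874C against all WT libraries (0.28, edgeR adjusted p = 0.0213; same-set 0.314) and in JmjC against same-set WT (0.24, 0.0348; all WT libraries 0.212). Each of these 2 calls was lost in some fits that left out 1 library (highest edgeR adjusted p = 0.116 and 0.139).

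Of the dismutase relatives, Rsod measured 2.29 to 3.31 CPM in WT and 8.52 to 10.2 CPM in JmjC, a log2 fold of 1.80 ± 0.16 (edgeR adjusted p = 2.65e-07). It also rose in A224T (1.12, edgeR adjusted p = 0.000101) and D234G (0.75, 0.00161). In Y874C, at 3.51 to 5.08 CPM, Rsod was called higher against all WT libraries only. Against same-set WT the D234G value of Rsod was 0.67 (edgeR adjusted p = 0.0233), lost without WT 2 (0.41, 0.29), D234G 1 or D234G 2. Sod3, an extracellular superoxide dismutase, fell in Y874C (-0.49, edgeR adjusted p = 0.000777) and R873W (-0.31, 0.00849). The same-set call of Sod3 in R873W was lost without WT 1 (edgeR adjusted p = 0.057). In JmjC it was called lower against all WT libraries only.

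Of the oxidases, Nox, which makes superoxide, measured 1.09 to 1.81 CPM in WT and 3.71 to 4.52 CPM in JmjC (1.52 ± 0.23, edgeR adjusted p = 7.36e-05), without overlap. In R873W, at 1.75 to 3.20 CPM, Nox had 0.84 (edgeR adjusted p = 0.00696), lost without R873W 1 (0.64, 0.0605). Its same-set value there was 0.79 (edgeR adjusted p = 0.048), lost without WT 2 (0.44, 0.424), R873W 1 or R873W 3. In A224T, at 2.27 to 2.51 CPM, Nox was called higher against all WT libraries only. Duox, a dual oxidase that makes hydrogen peroxide, rose in A224T (0.59, edgeR adjusted p = 0.00177) and D234G (0.82, 2.64e-05). In these strains Duox was called against same-set WT too. In R873W Duox was called higher against all WT libraries only, and in L854F and JmjC against same-set WT only. Its levels in L854F (26.97 to 30.3 CPM) and JmjC (28.2 to 29.1 CPM) lay above WT 3 to 5 (at most 21.2 CPM). Of all genes 16.8% did so in L854F and 21.2% in JmjC. Duox also differed between the sets of WT libraries (-0.41, edgeR adjusted p = 0.00866).

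Among the regulators, foxo, a stress-responsive transcription factor, fell in A224T, L854F and JmjC against both WT controls, by 0.25, 0.30 and 0.22 on the log2 scale against all WT libraries (highest edgeR adjusted p = 0.032). Its calls against all WT libraries were lost in A224T without A224T 1, A224T 3 or WT 4, in L854F without L854F 1, and in JmjC without any 1 JmjC library or WT 4 (highest edgeR adjusted p = 0.203). Those of foxo against same-set WT were lost in A224T without A224T 3 or WT 4, and in JmjC without JmjC 2, JmjC 3 or WT 4 (highest edgeR adjusted p = 0.112). In D234G, at 85.7 to 94.4 CPM, foxo was called lower against all WT libraries only. DJ-1alpha, a relative of the redox sensor DJ-1, rose in D234G (0.72, edgeR adjusted p = 0.00113) and Y874C (0.50, 0.0221). The Y874C call of DJ-1alpha was lost without WT 4 or any 1 Y874C library (highest edgeR adjusted p = 0.0906), and its same-set call (0.72) without WT 1 (0.133) or WT 2 (0.061).

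TrxT and Grx1t, a thioredoxin and a glutaredoxin of the testis, rose in D234G and R873W. TrxT was at 27.6, 0.204 and 31.5 CPM in D234G 1 to 3, at 0.489, 3.95 and 1.61 CPM in R873W and at most 0.164 CPM in WT. Grx1t was at 2.86, 0 and 9.43 CPM in D234G and at 0.133, 1.71 and 0.891 CPM in R873W. D234G 2 was low for both, as it was for the male reproductive markers, and the part of testis RNA was not tested. Their same-set calls in R873W were lost without WT 1 or WT 2, and that of Grx1t also without R873W 2 (highest edgeR adjusted p = 0.135). dhd, a germline thioredoxin, was called lower in R873W, Y874C and JmjC, but this rests on WT 2, at 52.9 CPM. Without WT 2 the log2 folds of dhd were -0.44 (edgeR adjusted p = 0.834), -0.61 (0.825) and 0.04 (0.998). D234G 2 was also high in dhd, at 35.8 CPM, against 0 and 0.361 CPM in D234G 1 and 3.

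Ribo-Seq asked how loss of KDM5 in neurons changes RNA levels and ribosome footprints. Which libraries gave the RNA folds was not established here, and input libraries need not hold RNA of neurons alone. The RNA and footprint folds may therefore cover different cells. All Ribo-Seq values come from the authors' deposited table, which gives folds of knockdown against control with adjusted p-values but no error or per-library value. They are read as log2. Kdm5 itself was lower, at -0.97 in RNA (adjusted p = 2.06e-22) and -2.02 in footprints (2.2e-45) in the authors' deposited table. Of the 10 members, 2 rose (10.1% of all genes) and 3 fell (10.7%) in RNA, 20.7% of all genes being called, and 2 rose (7.21%) and 3 fell (17.9%) in footprints, 25.1% being called, in the authors' deposited table. The 5 of 10 members called in each are a larger share than that of all genes, with no test of that difference. They include Prx6c, which may share reads with its neighbours, and Prx5, whose RNA values equal those of CG7215, as given below.

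In the authors' deposited table Prx6c rose in both measures, by 1.24 in RNA (adjusted p = 5.19e-20) and 0.51 in footprints (1.29e-06). Its neighbours Prx6b and CG12896 did so too, by 1.37 and 1.44 in RNA and by 0.50 and 0.50 in footprints in the authors' deposited table. The mean footprint counts of the 3 genes in the authors' deposited table were nearly equal, at 2279, 2288 and 2295, so they may count the same reads. Prx5 rose by 0.29 in RNA (adjusted p = 0.00322) and 0.35 in footprints (0.0038) in the authors' deposited table. The RNA values of CG7215 in the authors' deposited table were those of Prx5, 0.29 with a mean count of 3915, while its mean footprint count was 46.8 against 1717.6.

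Of the enzymes that fell in the authors' deposited table, Sod1 had -0.34 in RNA (adjusted p = 0.00506) and -0.48 in footprints (0.000231). Trxr1 had -0.33 in RNA (adjusted p = 0.0321) and -0.31 in footprints (0.0341) in the authors' deposited table. Gclc had -0.31 in RNA (adjusted p = 0.0245) and -0.23 in footprints (0.141), where it did not pass, in the authors' deposited table. Sod2 passed in footprints, at -0.33 (adjusted p = 0.0243), and not in RNA, at -0.06 (0.652), in the authors' deposited table; the difference between the 2 was not tested. Cat, Prx3, Keap1 and cnc passed in neither, with RNA folds from -0.20 to 0.10 for the transcript with most RNA in the authors' deposited table. All 16 cnc transcripts in the authors' deposited table had footprint folds below 0, from -0.40 to -0.14, none of them called, and the transcripts overlap.

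The authors' deposited table also has a column named te. Over 6255 genes with mean counts of 100 or more it differed from the footprint fold by a median of 0.023 and from the footprint minus RNA fold by 0.199, so it follows footprints. In that column of the authors' deposited table Prx5 and Prx6c rose (9.62% of all genes) and Sod1 and Sod2 fell (17.2%), 26.9% being called. The plain difference of the deposited footprint and RNA folds was -0.72 for Prx6c and -0.27 for Sod2, with no test. Of the 41 genes of the wider list in the authors' deposited table, 7 rose and 8 fell in RNA (38 had an adjusted p), and 4 rose and 8 fell in footprints (40 had one). Of all genes, 10.1% rose and 10.7% fell in RNA and 7.21% rose and 17.9% fell in footprints, and no test of the difference was made. Ho, the haem oxygenase, had the largest RNA rise among them (1.65, adjusted p = 5.22e-13; chosen after its value was seen), with 0.43 in footprints (0.00556), in the authors' deposited table.

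**Figure D5:**
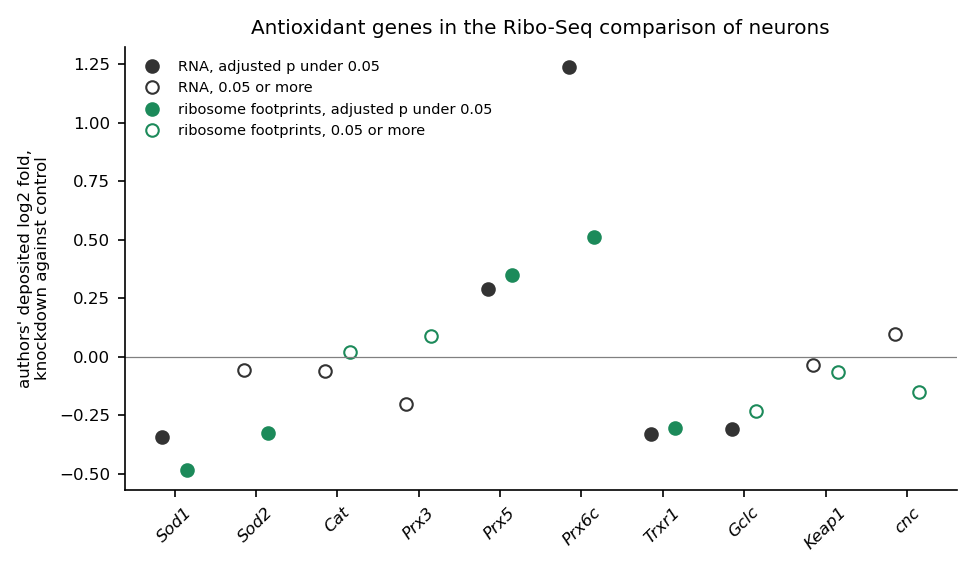
Log2 folds of neuronal knockdown against control (vertical axis) of the 10 antioxidant genes in the authors' deposited Ribo-Seq table, for RNA (black) and ribosome footprints (green). Filled points passed an adjusted p of 0.05. Prx6c has the highest RNA fold (1.24) and Sod1 the lowest footprint fold (-0.48).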

How the data were processed

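RNA-seq of 23 head libraries was used as counts per gene deposited by the authors, for 23882 features of which 17830 were genes. The submitters' processing notes list fastp, STAR, featureCounts, DESeq2 and dm6. A stranded mRNA kit was used, per the labels' protocols; the sources used here do not give the strand option of counting. For Ribo-Seq only the authors' comparison table of 30704 transcripts was used. It holds folds read here as log2, since the authors' notes list DESeq2, whose folds are log2, with p-values (adjusted, per the file headers) and mean counts that the authors deposited per transcript; per-library Ribo-Seq values were not analysed here. The transcript with most RNA stood for each gene.

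Counts were fitted with edgeR 4.0.16 in R 4.3.3 (TMM scaling, filterByExpr, 12093 genes kept, 1 means model of 7 groups, quasi-likelihood F-test) and called at an adjusted p under 0.05. Alternatives used DESeq2 1.42.0. WT was split at 5 CPM of roX2 for same-set values. The pipeline was tested on simulated counts. Tables were made with pandas 2.3.3 and numpy 2.4.6 and figures with matplotlib 3.10.9, under Python 3.11.15. No 2 libraries of 1 group agreed within sampling noise.

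The members, lists, tests and naming rule were chosen with earlier results of these data known. Named were all 10 members, Kdm5, list genes called alike in 2 or more strains against both controls (at most 12, by largest mean fold), and the 2 nearest profiles of members called in 3 or more strains. Gene positions come from RefSeq's dm6 annotation. Promoter sequences were not analysed here.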

Additional observations from a re-analysis of the deposited data

Results flagged for a closer look

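In 21 genes the highest and lowest of the 5 WT libraries were checked for a gap to the next one that took up more than 0.71 of the whole range; chance flags about 1 in 20 groups. The germline thioredoxin dhd was at 52.9 CPM in WT 2, against 0 to 0.239 CPM in the other 4 WT libraries. The testis glutaredoxin Grx1t was at 0.0598 CPM in WT 3 and at 0 in the others. Sod3 was at 102 CPM in WT 5, against 123 to 130.2 CPM in the others. No member stood out in this way.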

How the results depend on the processing

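Over 1395 member values under the alternatives against the fit with all WT libraries, 1283 kept their side of the threshold, 76 lost it and 36 gained it. None past the threshold in either fit changed sign, and 104 past it in neither did. With same-set WT libraries the members called were 1 in D234G, 2 in R873W, 0 in Y874C, 1 in JmjC and 0 for the mean of 5 strains, and in the wider list 2 fell in A224T, 3 fell in D234G, 3 rose and 3 fell in L854F, 7 rose in R873W, and 3 rose and 3 fell in Y874C. Library size scaling gave 2 in A224T, 2 in R873W and 1 in JmjC. DESeq2 size factors and the DESeq2 Wald test each gave 2 in R873W (cnc and Gclc). With no filter the mean of 5 strains had 1. With only the compared groups fitted there were 0 in R873W, 0 in Y874C, 1 in JmjC, 1 for the mean of 5 and 5 between WT sets; edgeR then gave 2 unadjusted p under 0.05 in R873W and 2 in Y874C. With D234G 2 as the lone D234G library, D234G and the mean of 5 each had 0, with 2 unadjusted in each. The cause of these changes was not tested, apart from the fewer libraries where some were left out.

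The labels do not say that replicate numbers pair libraries, and deviations of same-numbered libraries correlated with r of -0.142 to 0.111. With the replicate number as a block, where WT 4 and 5 inform no contrast, calls were 2 in A224T (Sod1 and Prx6c), 1 in L854F (Sod1), 2 in R873W (cnc and Trxr1), 0 in Y874C and 0 for the mean of 5, where edgeR gave 2 and 1 at an unadjusted p under 0.05. JmjC also gained Sod1 (-0.62, edgeR adjusted p = 0.000981), and D234G lost cnc (-0.16, 0.0805).

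Leaving out 1 library at a time gave 1 to 2 members in A224T, 0 to 2 in R873W, 1 to 3 in Y874C, 0 to 3 in JmjC, 0 to 2 for the mean of 5, 2 to 4 for JmjC against that mean and 1 to 3 between WT sets. With same-set WT, an alternative chosen after seeing the data, it gave 0 to 2 in D234G, 0 to 3 in R873W, 0 to 1 in Y874C and 0 to 2 for the mean of 5. Apart from the same-set fit with all libraries, shares of all genes called under the alternatives are not given here. These counts therefore do not show whether the members changed more than genes at large. D234G 1 and 2 had low depth. The motif search in promoters was not run.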
